A study of Mus musculus with 8 samples.

Results

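The genes of the mitochondrial respiratory chain were examined in 4 progenitor populations of mouse bone marrow, with attention to Cox6a2, a tissue-restricted subunit of cytochrome c oxidase. Members were taken by symbol: every gene beginning with Nduf, Uqcr or Atp5, or with Cox4 to Cox8, together with Sdha to Sdhd and Cycs. The rule gave 91 of the 22878 gene symbols measured. By textbook role, 36 were subunits of complex I, 4 of complex II, 8 of complex III, 20 of complex IV and 15 of complex V, with 1 cytochrome c gene and 4 assembly factors of complex I. The remaining 3, Atp5s, Atp5sl and Cox4nb, matched by name and were kept apart from the subunits.

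The study measured 8 bulk RNA-seq libraries from C57BL/6 mice, 2 per group, to follow transcriptome change from common lymphoid progenitors to innate lymphoid progenitors and between 2 subsets of the latter. Common lymphoid progenitors (CLP) were lineage-negative, CD127+, Flt-3+, integrin α4β7-, Sca1+ and c-Kit+. Common helper-like innate lymphoid progenitors (ChILP) were lineage-negative, CD127+, Flt-3-, integrin α4β7+, T1/ST2- and c-Kit+. The PD-1+ group (non-LTi innate lymphoid progenitors, PD-1+CCR6-) and the CCR6+ group (lymphoid tissue inducer progenitors, PD-1-CCR6+) carried the ChILP markers and were parts of that gate. Per the labels' protocols, CLP and ChILP were enriched by depletion of lineage-positive cells, whereas PD-1+ and CCR6+ cells were captured with magnetic beads through integrin α4β7. Group and route of enrichment therefore cannot be told apart between the first pair of groups and the second. The labels give neither the age nor the number of mice and do not state whether replicate libraries come from different mice; the p-values therefore cover the variation among these 8 libraries, part or all of which may be technical.

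The respiratory chain passes electrons from NADH through complex I, or from succinate through complex II, to complex III, cytochrome c and complex IV, which reduces oxygen. Protons pumped on the way drive ATP synthesis by complex V. Most nuclear-encoded subunits are made in nearly all cells, but several small subunits of complex IV have alternative forms, such as the muscle forms Cox6a2, Cox7a1 and Cox8b and the testis form Cox6b2. Subunits encoded in the mitochondrial genome fall outside the rule. Lymphoid progenitors are cells in which the balance of glycolysis and respiration is known to change with proliferation and commitment.

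Gene-assigned reads ranged from 7685191 to 13997891 per library. The sort markers mostly followed the labels: Flt3 was at 92.1 and 157 RPKM (reads scaled by transcript length and library total) in CLP and at most 10.3 elsewhere, and Pdcd1, which encodes PD-1, was at 181 and 36.3 in PD-1+ and at most 1.10 in CCR6+. The PD-1+ libraries differed from each other, with Gata3 at 316 RPKM in replicate 1 and 62.8 in replicate 2. Haemoglobin reads separated the routes of enrichment: Hba-a1 took 0.0394% to 0.332% of gene reads after lineage depletion (CLP, ChILP) and 1.67% to 2.32% after bead capture (PD-1+, CCR6+). The summed RPKM of 9 erythroid markers was 2668 to 8652 in CLP and ChILP and 29409 to 42657 in the other two groups. For 11 neutrophil and monocyte markers the sums were 7993 to 16034 and 16383 to 35656, but single genes went both ways: against CLP, 2 were called higher and 4 lower in PD-1+, and 2 higher and 3 lower in CCR6+. Lyz2, the lysozyme of mature myeloid cells, had log2 fold changes of 4.25 and 4.62, and Mpo, a granule enzyme of immature ones, of -2.91 and -2.46. The part of these cells' RNA in the differences described here was not tested.

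Cox6a2 and Cox6a1 encode alternative forms of the same small subunit, so their transcripts had to be separable by reads of 50 bases before their levels could be set side by side. On GRCm38, with the GENCODE M21 annotation, Cox6a2 lies at chr7:128205435-128206387 and Cox6a1 at chr5:115345642-115348981, both on the minus strand with 3 exons. Their coding sequences were identical at 193 of 290 aligned bases (66.6%), and the longest run shared by the whole transcripts was 12 bases, well short of a read. The stretch of 120 coding bases around that run is shown because it is where the pair is hardest to tell apart; it spans exons 2 and 3 of each gene, and the capitals mark the shared run. The stretch is bases 196 to 315 of the 339 coding bases of Cox6a1 and bases 151 to 270 of the 294 of Cox6a2.
Cox6a1: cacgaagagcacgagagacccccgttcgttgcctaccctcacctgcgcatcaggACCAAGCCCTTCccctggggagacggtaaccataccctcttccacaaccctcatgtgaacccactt
Cox6a2: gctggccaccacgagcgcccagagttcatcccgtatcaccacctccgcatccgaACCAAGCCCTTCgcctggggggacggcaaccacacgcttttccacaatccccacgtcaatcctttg

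Cox6a2 (NM_009943) was highest in CLP and lowest in ChILP. Its level was 103 and 162 RPKM in the CLP libraries, 7.15 and 11.5 in ChILP, 23.6 and 29.7 in PD-1+ cells, and 28.0 and 29.9 in CCR6+. Both CLP libraries stood above all others and both ChILP libraries below all others, and the PD-1+ and CCR6+ libraries lay between them with overlapping values. Group means were 133 ± 42.2 RPKM in CLP, 9.32 ± 3.08 in ChILP, 26.6 ± 4.32 in PD-1+ and 28.9 ± 1.36 in CCR6+ (SD, n = 2 each). The values rested on 86 to 1566 reads per library.

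The difference between ChILP and CLP was a log2 fold change of -3.76 (SE 0.386; edgeR quasi-likelihood test, adjusted p = 0.0495). The gene was singled out with this result known, so the value describes these libraries and is no independent test. The adjusted p missed the threshold with 1 library left out, whichever of the 4 it was, with 0.494 without CLP replicate 2. Against CLP, Cox6a2 was also lower in PD-1+, by a log2 fold change of -2.02 (SE 0.357, adjusted p = 0.0205), and in CCR6+, by -1.85 (SE 0.355, adjusted p = 0.0193). These comparisons use the same CLP libraries as the first. Without CLP replicate 2, which had the highest level, the adjusted p values were 0.154 and 0.150. The PD-1+ call was also lost without PD-1+ replicate 1 (0.0562) and with only the 4 libraries compared (0.0528), and the CCR6+ call without CCR6+ replicate 1 (0.0886) or 2 (0.0757). PD-1+ and CCR6+ differed by -0.17 (SE 0.348, adjusted p = 0.973), and their values overlapped.

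PD-1+ and CCR6+ cells are parts of the ChILP gate, and cells negative or positive for both markers are in neither group. Every library of the subsets held more Cox6a2 than either ChILP library. That difference was not tested, and it runs across the routes of enrichment. In bulk samples, fewer cells expressing a gene and less RNA per cell cannot be told apart. Lists of markers of other cells were read beside it. None of the 16 plasmacytoid dendritic cell markers was at 0 throughout, and their summed RPKM was 1256 to 1480 in CLP, 993 to 1016 in ChILP, 1286 to 2086 in PD-1+ and 2014 to 2304 in CCR6+. Siglech, a surface receptor that defines these cells in mice, was at 18.9 RPKM in both CLP libraries, 4.39 and 6.19 in ChILP, 26.2 and 23.7 in PD-1+ cells, and 42.0 and 26.1 in CCR6+. The list did not move 1 way in ChILP against CLP: 8 of its 16 genes were above 0 and 8 below, with a median log2 fold change of -0.15, beside 0.05 over all genes, and none was called. Against CLP, 3 of the 16 were called higher in PD-1+ and 7 in CCR6+, and none lower. Of all genes, 7.32% and 11.4% were called in either direction. The list medians there were 1.13 and 1.43, beside -0.02 and -0.09 over all genes. The 8 B cell markers summed to 160 to 181 in CLP, 25.2 to 66.4 in ChILP, 239 to 283 in PD-1+ and 320 to 334 in CCR6+, with none at 0 throughout. In ChILP against CLP, 1 of them was above 0 and 7 below, with a median log2 fold change of -2.12, and none was called. Both sums were lowest in ChILP, as was Cox6a2, but were not highest in CLP; their part in the result was not tested. Of 17 muscle markers, 7 had no reads in any library, Mb (myoglobin), Des (desmin) and Myh7 among them, and the sums of 16.3 to 29.8 overlapped between groups. Cox6a2 lies within the interval of Itgad on the opposite strand. Itgad was at 0.425 to 5.35 RPKM and highest in PD-1+ and CCR6+, and its part in the Cox6a2 counts was not tested.

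Cox6a1 (NM_007748), the widely expressed form, did not share this pattern. It was at 692 and 749 RPKM in CLP, 906 and 841 in ChILP, 551 and 618 in PD-1+ cells, and 681 and 644 in CCR6+. Every library held more Cox6a1 than Cox6a2 per transcript length. The log2 fold change of Cox6a1 was 0.33 in ChILP (SE 0.176, adjusted p = 0.943), -0.02 in PD-1+ and 0.21 in CCR6+ against CLP, none past the threshold. As a share of the RPKM of both forms, Cox6a2 made up 12.9% and 17.8% in CLP, 0.782% and 1.35% in ChILP, 4.11% and 4.59% in PD-1+ cells, and 3.95% and 4.43% in CCR6+. The share, like the level of Cox6a2 alone, was highest in CLP and lowest in ChILP, with PD-1+ and CCR6+ overlapping.

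**Figure D1:**
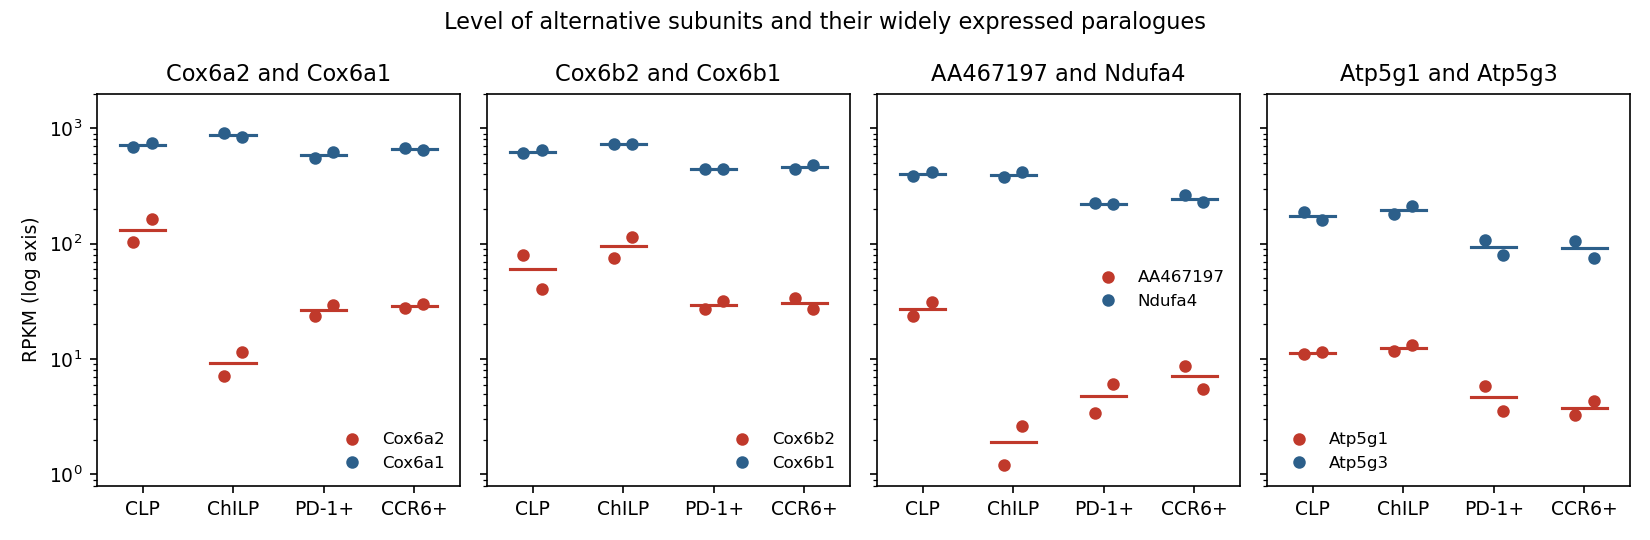
RPKM (log axis) of 4 pairs of related genes in each library, with points for single libraries and bars for the mean of the 2 libraries of a group. Cox6a2 runs from 103 and 162 in CLP to 7.15 and 11.5 in ChILP while Cox6a1 stays between 551 and 906; the Ndufa4-related gene AA467197 has the same order of groups at its extremes, and the other 2 pairs do not.

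The other alternative forms of complex IV subunits were different. Cox6b2, the testis form, was at 80.2 and 40.3 RPKM in CLP, 75.8 and 115 in ChILP, 27.1 and 31.7 in PD-1+ cells, and 34.1 and 26.9 in CCR6+. The CLP and ChILP values overlapped and both groups stood above the other two, but no comparison passed the threshold (log2 fold change 0.69 in ChILP, -0.78 in PD-1+ and -0.67 in CCR6+ against CLP, adjusted p 0.989, 0.317 and 0.357). As a share of the RPKM of Cox6b1 and Cox6b2, it made up 5.26% to 13.7% across the 8 libraries. Cox4i2, the lung and hypoxia-linked form of the core assembly subunit, was at 0 to 2.67 RPKM beside 860 to 1247 for Cox4i1. The muscle forms Cox7a1 and Cox8b reached at most 0.767 and 0.773 RPKM, and Ndufa4l2, a hypoxia-induced relative of Ndufa4, reached 0.194. Cox7b2 and Cox8c had no reads in any library. Of the muscle forms of complex IV, Cox6a2 was thus the one detected above 1 RPKM.

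The genes whose level across the 8 libraries was most like that of Cox6a2 were sought among the 5912 genes with a mean of at least 10 RPKM, by the Pearson correlation of log2(RPKM + 1). The correlation is over 8 libraries that fall into 4 groups and is given as a description. The first was AA467197, a relative of Ndufa4 that hosts a microRNA gene, with r = 0.979. It was at 23.7 and 31.1 RPKM in CLP, 1.20 and 2.63 in ChILP, 3.44 and 6.06 in PD-1+ cells, and 8.77 and 5.47 in CCR6+. Its reads numbered 14 to 291 per library and no comparison passed the threshold (log2 fold change -3.77 in ChILP against CLP, SE 0.801, adjusted p = 0.196). The second, Mir147, lies within AA467197, and their reads cannot be told apart. Next came Foxp1, a transcription factor of lymphoid development, with r = 0.957, and Blnk, the B cell linker adaptor, with r = 0.950. Zfp36l2, N4bp3, Ptp4a3, Blk, Mef2c and Ptpn18 followed with r from 0.918 to 0.933. Blnk went from 36.9 and 71.6 RPKM in CLP to 2.27 and 2.60 in ChILP, and Blk, a Src-family kinase of B cells, from 18.6 and 34.9 to 1.17 and 0.0785. Ndufa4 itself, a complex IV subunit despite its name, was at 383 and 420.0 RPKM in CLP, 377 and 415 in ChILP, 223 and 221 in PD-1+ cells, and 262 and 229 in CCR6+, without the drop in ChILP.

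Over all members, the chain's genes were about as abundant in ChILP as in CLP and less abundant in both subsets. The summed RPKM of the 91 members was 17529 and 18903 in CLP, 19389 and 19799 in ChILP, 13535 and 12276 in PD-1+ cells, and 12528 and 12605 in CCR6+. The ranges of CLP and ChILP did not touch, and both stood above PD-1+ and CCR6+, whose ranges overlapped. As a share of gene reads, members took 2.07% and 2.08% in CLP, 2.11% and 2.30% in ChILP, 1.49% and 1.32% in PD-1+ cells, and 1.38% and 1.32% in CCR6+. RPKM is relative to the library total, in which the haemoglobin transcripts above took a larger part in PD-1+ and CCR6+. The median of all genes on that scale was lower in PD-1+ and CCR6+ than in CLP by 0.26 and 0.36 (log2), and the counts were therefore also compared after TMM scaling, with changes read against the median of all genes. Members were more even between replicates than all genes: the median absolute log2 difference between the 2 libraries of a group was 0.110 to 0.158 for members and 0.379 to 0.542 for all genes tested. Members and all genes were not matched for level, and the part of level in this difference was not tested. Nor were they matched in the shares of genes without overlap given below.

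**Figure D2:**
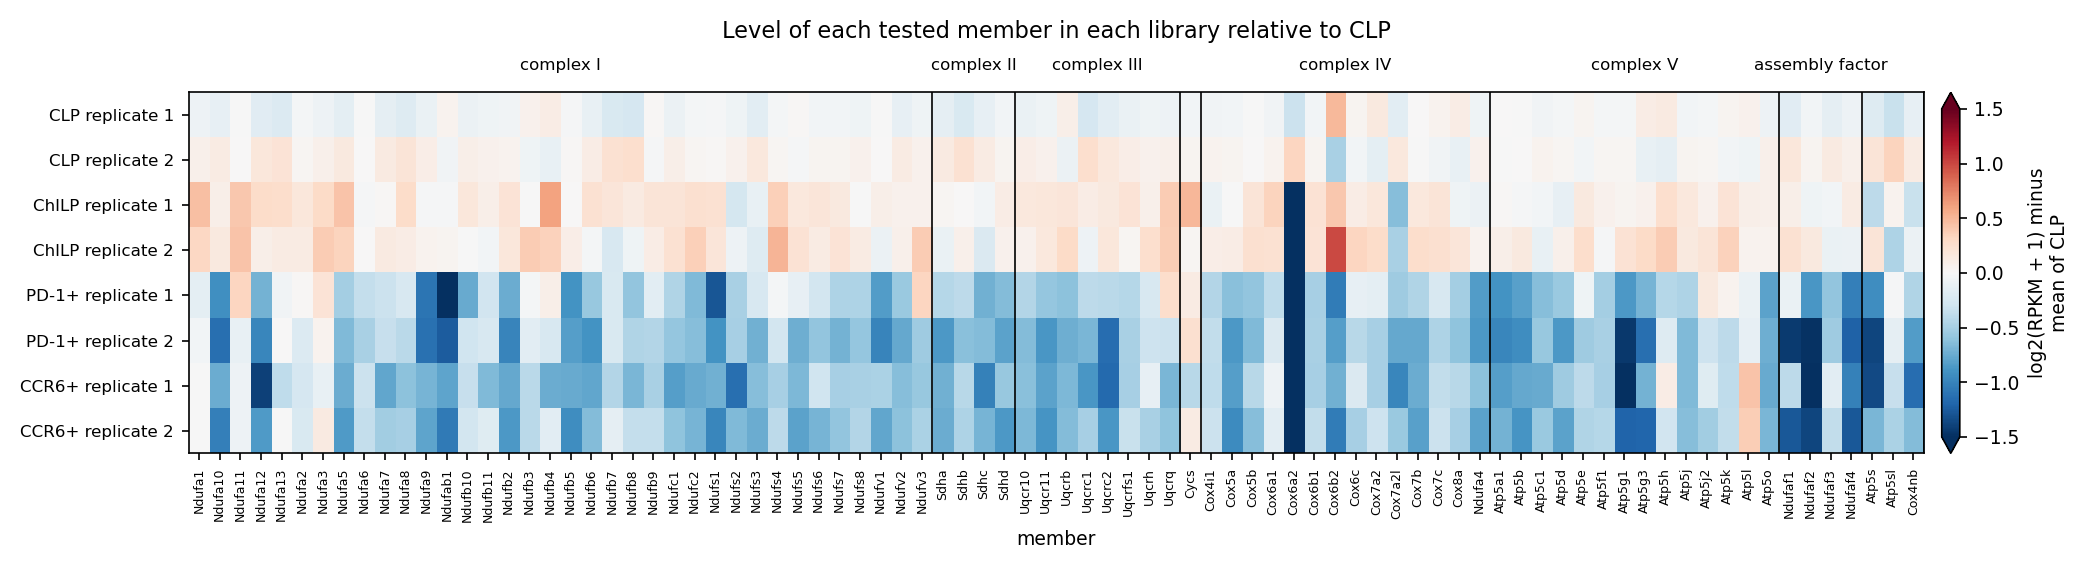
Level of each of the 84 tested members (columns, by role) in each library (rows), as log2(RPKM + 1) minus the mean of the 2 CLP libraries; red is higher and blue lower, and the scale stops at 1.5 in both directions. Cox6a2 is blue in all 6 libraries outside CLP; most other members are pale red in ChILP and blue in PD-1+ and CCR6+, on a scale where the median of all genes also lies 0.26 and 0.36 lower in PD-1+ and CCR6+.

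In ChILP against CLP, the members other than Cox6a2 were slightly higher on the whole and none passed the test. Of 91 members 84 passed the filter on low counts; Atp5g2, Cox4i2, Cox7a1, Cox7b2, Cox8b, Cox8c and Ndufa4l2 did not. No member was called higher and 1, Cox6a2, was called lower, where 0.022% of all 13619 genes tested were called in either direction and 0.0147% lower. At an unadjusted p under 0.05 there were 3 members higher and 2 lower, without a count over all genes to set beside them. The median log2 fold change of the tested members was 0.18, beside 0.05 over all genes, and 74 of the 84 were above 0. On TMM-scaled levels, 53 members (63.1%) lay higher in both ChILP libraries than in both CLP libraries, against 19.9% of all genes, and 3 members (3.57%) lay lower, against 17.1% of all genes. On log2(RPKM + 1), without TMM scaling, the higher count was 35, against 17.0% of all genes. Apart from Cox6a2, none of these differences passed the test.

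In complex I, which oxidises NADH, the summed RPKM was 5511 and 6240 in CLP and 6527 and 6296 in ChILP, and 34 of 36 members had a log2 fold change above 0, with a median of 0.21. Ndufa11, an accessory membrane subunit, had the smallest p; it was at 31.7 and 32.1 RPKM in CLP and 42.4 and 43.1 in ChILP (log2 fold change 0.48, SE 0.188, adjusted p = 0.80). Ndufs4, an accessory subunit needed for stability of the complex, was at 35.4 and 36.9 in CLP and 46.5 and 52.1 in ChILP (0.50, SE 0.206, adjusted p = 0.844). For both genes the 2 groups did not overlap, and the adjusted p was far from the threshold. The most abundant members, Ndufa2 and Ndufb7, had log2 fold changes of 0.20 and 0.03.

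Complex II, which joins the chain to the TCA cycle, summed to 656 and 792 RPKM in CLP and 737 and 713 in ChILP, with a median log2 fold change of 0.05, the same as all genes. Its 4 members lay between -0.07 (Sdhc) and 0.15 (Sdhd). Complex III, which passes electrons to cytochrome c, summed to 2289 and 2658 in CLP and 2812 and 2729 in ChILP, and all 8 members were above 0, with a median of 0.22. Uqcrq, a small subunit of that complex, was at 425 and 476 RPKM in CLP and 584 and 579.7 in ChILP (0.43, SE 0.191, adjusted p = 0.879). Uqcr11 followed with 0.22 and Uqcr10, the most abundant, with 0.17.

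In complex IV the summed RPKM was 5083 and 5191 in CLP and 5201 and 5640 in ChILP. Cox4i1, its most abundant subunit gene and that of all members, was at 1122 and 1206 RPKM in CLP and 1081 and 1247 in ChILP. Beside Cox6a2, the one other member below 0 was Cox7a2l, a relative of Cox7a2. It was at 107 and 133 RPKM in CLP, 75.9 and 84.8 in ChILP, 82.3 and 69.7 in PD-1+ cells, and 60.2 and 81.0 in CCR6+. CLP was higher than all other libraries for this gene, but no comparison passed (ChILP against CLP -0.52, SE 0.205, adjusted p = 0.808). Complex V, the ATP synthase, summed to 3846 and 3845 in CLP and 3958 and 4263 in ChILP, with a median log2 fold change of 0.15. Atp5k and Atp5h had 0.33 and 0.37 and Atp5b, the catalytic beta subunit, had 0.12. The complex I assembly factors, Ndufaf1 to Ndufaf4, lay between -0.02 and 0.22.

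**Figure D3:**
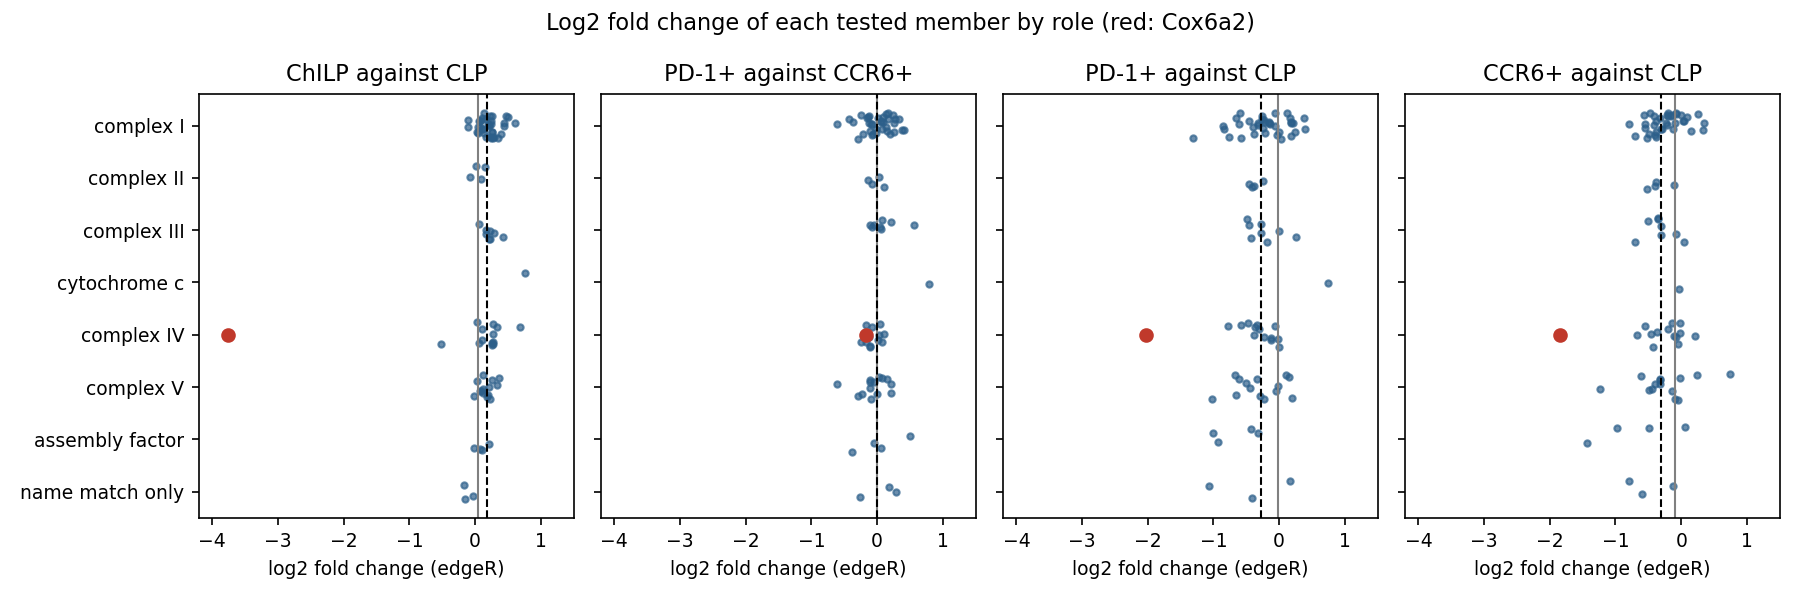
Log2 fold change (edgeR) of each tested member by role in the 4 comparisons, with the solid grey line at the median of all genes, the dashed line at the median of the members and Cox6a2 in red. The dashed line lies at 0.18 in ChILP against CLP, at -0.01 between PD-1+ and CCR6+, and at -0.28 and -0.31 in PD-1+ and CCR6+ against CLP; Cox6a2 lies at -3.76, -0.17, -2.02 and -1.85.

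PD-1+ and CCR6+ progenitors were not told apart by their respiratory chain genes. No member was called in either direction by edgeR, where 0.0% of all genes were; 1 was higher and 1 lower at an unadjusted p under 0.05, and neither DESeq2 nor limma called a member. The median log2 fold change was -0.01, beside 0.01 over all genes, and 41 members were above 0 and 43 below. On TMM-scaled levels 10 members (11.9%) lay higher in both PD-1+ libraries and 20 (23.8%) lower, against 17.5% and 15.8% of all genes. Uqcrq had the smallest p: it was at 538 and 359.6 RPKM in PD-1+ cells, and 280.3 and 296 in CCR6+ (log2 fold change 0.57, SE 0.191, adjusted p = 0.793). The PD-1+ replicates differed from each other by more than replicate 2 differed from CCR6+. Ndufa9, an accessory subunit of complex I, was at 52.5 and 51.8 in PD-1+ cells, and 69.8 and 65.0 in CCR6+ (-0.43, SE 0.170, adjusted p = 0.820). Ndufv1, the NADH-binding subunit, was at 87.5 and 78.4 and at 113 and 90.8 (-0.36, adjusted p = 0.850). In the other complexes the smallest p went to Sdhb and Sdhc (-0.13 and 0.10), Uqcrc2 after Uqcrq (0.22), Cox6a1 and Ndufa4 (-0.24 and -0.21), Atp5a1 and Atp5l (-0.23 and -0.61), and the assembly factors Ndufaf2 and Ndufaf3 (0.49 and -0.38). None of these passed.

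Against CLP, most members were lower in the PD-1+ group, and 3 passed the test. None was called higher and 3 were called lower (Cox6a2, Ndufa9 and Ndufa10), or 3.57% of those tested, where 7.32% of all genes were called in either direction and 2.84% lower. The share of members called was thus near that of all genes. At an unadjusted p under 0.05 there were 0 higher and 19 lower. The share of all genes at that p was not counted, so the 19 cannot be read against it. The median log2 fold change was -0.28, beside -0.02 over all genes, and 67 of 84 members (79.8%) were below 0, beside 50.7% of all genes. On TMM-scaled levels 51 members (60.7%) lay lower in both PD-1+ libraries than in both CLP libraries and 9 (10.7%) higher, against 29.0% and 26.1% of all genes. The erythroid and myeloid markers and the route of enrichment described above also differ between these groups; the part of the markers was not tested.

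Ndufa9 was at 106 and 122 RPKM in CLP, 112 and 117 in ChILP, 52.5 and 51.8 in PD-1+ cells, and 69.8 and 65.0 in CCR6+. CLP and ChILP overlapped, CCR6+ was lower than both and PD-1+ the lowest of all. The log2 fold change in PD-1+ against CLP was -0.85 (SE 0.171, adjusted p = 0.0285). Ndufa10, another accessory subunit of complex I, was at 112 and 133 in CLP, 129.9 and 135 in ChILP, 63.8 and 55.3 in PD-1+ cells, and 72.7 and 59.6 in CCR6+. PD-1+ and CCR6+ overlapped and both stood below the other groups; the change in PD-1+ was -0.77 (SE 0.184, adjusted p = 0.0451). Both calls were lost without any 1 of the 4 libraries compared, with adjusted p up to 0.174 for Ndufa9 and 0.243 for Ndufa10, highest without CLP replicate 2. Atp5a1, the alpha subunit of the ATP synthase, missed the threshold. It was at 472 and 466 RPKM in CLP, 473 and 499 in ChILP, 252 and 237 in PD-1+ cells, and 263 and 286 in CCR6+ (PD-1+ against CLP -0.67, SE 0.168, adjusted p = 0.0523).

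CCR6+ against CLP gave 1 call among the members, Cox6a2, and a similar median. No member was called higher and 1 lower (1.19% of those tested), where 11.4% of all genes were called in either direction and 4.79% lower. At an unadjusted p under 0.05 there were 0 higher and 19 lower, again without a count over all genes. The median log2 fold change was -0.31, beside -0.09 over all genes, and 72 of 84 members (85.7%) were below 0, beside 53.7% of all genes. On TMM-scaled levels 50 members (59.5%) lay lower in both CCR6+ libraries and 6 (7.14%) higher, against 33.4% and 28.0% of all genes. Next to the threshold were Ndufaf2 and Ndufaf4, assembly factors of complex I, and Cox5a, a nuclear-encoded complex IV subunit. Ndufaf2 was at 35.9 and 37.9 RPKM in CLP and 8.12 and 13.6 in CCR6+ (-1.43, SE 0.413, adjusted p = 0.0629). Ndufaf4 was at 10.4 and 11.6 in CLP and 4.92 and 3.97 in CCR6+ (-0.97, SE 0.283, adjusted p = 0.0636). Cox5a was at 426 and 448 in CLP and 245 and 227 in CCR6+ (-0.56, SE 0.165, adjusted p = 0.0671). In each of these 3 genes the groups were apart, yet none was called.

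By complex, the medians in PD-1+ and CCR6+ against CLP were -0.22 and -0.22 for complex I, -0.40 and -0.39 for complex II, -0.28 and -0.33 for complex III, -0.32 and -0.17 for complex IV, and -0.31 and -0.32 for complex V. The 4 complex I assembly factors had medians of -0.68 and -0.73. All 4 succinate dehydrogenase genes were below 0 in both comparisons; Sdhd was at 199 and 211 RPKM in CLP, 130.0 and 117 in PD-1+ cells, and 137 and 112 in CCR6+. Within complex I, 11 members were above 0 and 25 below in PD-1+ against CLP. Ndufa3 and Ndufa11 lay at 0.40 and 0.38 (SE 0.174 and 0.188), and Ndufs1, which carries iron-sulfur clusters, at -0.84 (SE 0.237). Ndufab1, the mitochondrial acyl carrier protein, lay at -1.31 (SE 0.625), from 39 and 55 reads in PD-1+. None of these 4 passed the threshold.

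Other mitochondrial and glycolytic lists were read beside the members. In ChILP against CLP and in PD-1+ against CCR6+, no gene of any of these 5 lists was called. Of 17 TCA cycle genes, 3 were called lower and none higher in PD-1+ against CLP (Idh2, Idh3a and Suclg1) and 2 lower in CCR6+ against CLP (Idh2 and Idh3a). The list medians were -0.33 and -0.40, beside -0.02 and -0.09 over all genes. Of all genes, 2.84% were called lower in PD-1+ and 4.79% in CCR6+ against CLP, and 7.32% and 11.4% in either direction. These shares stand beside the calls of all 5 lists, and single calls are no result about a list. Idh3a, the catalytic subunit of the NAD-dependent isocitrate dehydrogenase, was at 62.3 and 61.9 RPKM in CLP, 73.0 and 71.2 in ChILP, 24.3 and 17.6 in PD-1+ cells, and 22.7 and 21.4 in CCR6+. Idh2, its NADP-dependent mitochondrial counterpart, had log2 fold changes of -1.45 (adjusted p = 0.0154) and -1.51 (adjusted p = 0.0102). Of 23 further assembly factors of the chain, 1 was called: Bcs1l, which inserts the Rieske protein into complex III, in PD-1+ (-2.28, adjusted p = 0.0389).

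Among 17 regulators of mitochondrial gene expression and mitochondrial DNA, Myc was called lower in both comparisons with CLP. It was at 234 and 309 RPKM in CLP, 188 and 177 in ChILP, 69.1 and 47.4 in PD-1+ cells, and 35.7 and 45.0 in CCR6+ (-1.95, adjusted p = 0.00992, and -2.41, adjusted p = 0.00471). Peo1, the mitochondrial DNA helicase, was called in PD-1+ (-2.35, adjusted p = 0.0368). The medians of the list were -0.56 and -0.66, beside -0.02 and -0.09 over all genes. Of 18 glycolytic genes, Hk2, a hexokinase, was called higher and Tpi1, triose-phosphate isomerase, lower in both comparisons, and the medians were 0.18 and -0.01. Hk2 was at 6.46 and 5.13 RPKM in CLP, 11.3 and 13.0 in PD-1+ cells, and 8.10 and 13.3 in CCR6+. Among 9 tested carriers and porins, Ucp2, an inner membrane carrier, was called higher in CCR6+ (1.21, adjusted p = 0.0364) and Vdac1, the main porin of the outer membrane, lower (-1.07, adjusted p = 0.0306).

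**Figure D4:**
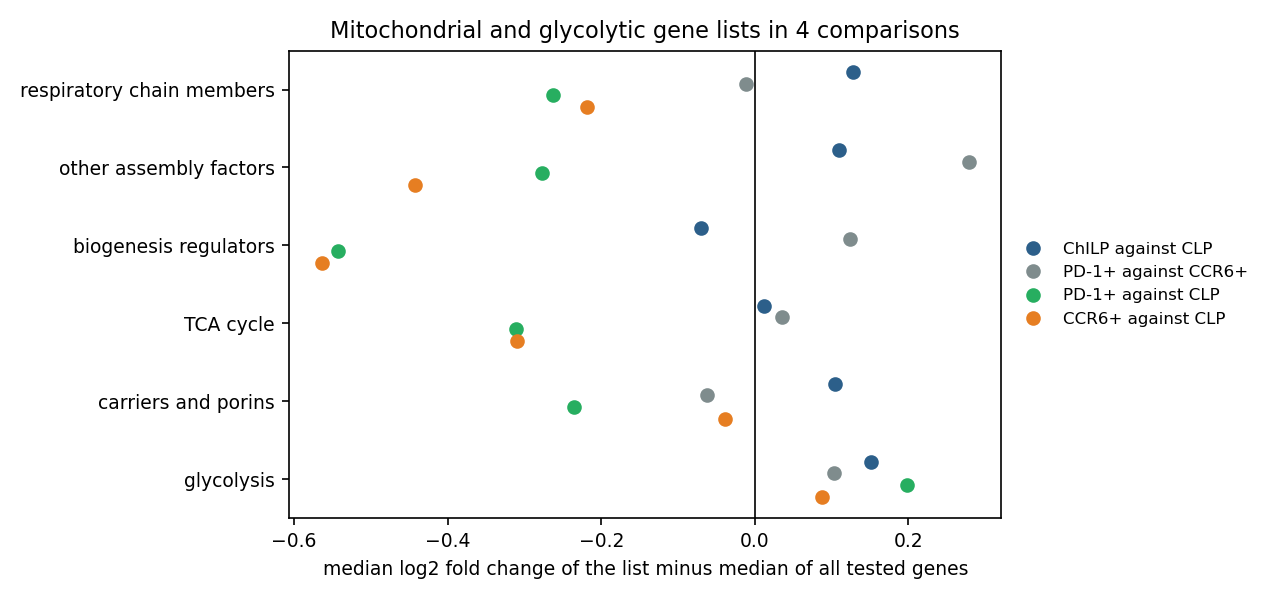
Median log2 fold change of each list minus the median of all genes tested, in the 4 comparisons (colours). The respiratory chain members, the other assembly factors, the regulators and the TCA cycle genes lie below 0 in both comparisons with CLP of the captured groups, while the glycolytic genes lie above 0 in all 4.

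Several members share sequence with other genes. Many respiratory chain genes have processed pseudogenes, and how the authors treated reads that match several genes is not stated in what was used here. For each member, the share of its 50-base windows that also occur in a transcript of another gene was counted in GENCODE M21. The GENCODE transcript can differ in length from the deposited RefSeq transcript. Ndufab1 has 800 bases in the deposited data but 3430 windows, and Ndufa11 has 2661 bases but 496 windows. For such genes the share and the level need not describe the same transcript. The share was above 0 for 49 of the 91 members and reached 87.4% for Atp5g2, 84.8% for Atp5l, 66.0% for Atp5g1, 53.8% for Ndufa12, 53.0% for Cox7c, 50.5% for Atp5h and 50.3% for Atp5o. Of these, 4 had low levels: Atp5g2 was at 0.145 to 1.02 RPKM, Atp5l at no more than 18.1, Atp5g1 at 3.25 to 13.3 and Cox7c at 9.46 to 16.02. The other 3 did not, with Ndufa12 at 36.3 to 118 RPKM, Atp5h at 66.6 to 118 and Atp5o at 139 to 258. Atp5g1, Atp5g2 and Atp5g3 encode the same c subunit of the ATP synthase; Atp5g3, with no shared windows, was at 75.7 to 213. Among the 84 subunit genes the median level was 161 RPKM for the 52 with under 10% of windows shared, 120.1 for 23 with 10% to 40%, and 53.7 for 9 with 40% or more. The part of shared sequence in these levels was not tested.

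Cycs, the somatic cytochrome c gene, was listed at 0.153 to 1.16 RPKM, from 5 to 65 reads per library. Of its windows, 28.5% are shared, with 76 other genes of which 10 are pseudogenes. Its counts carry no usable comparison (log2 fold change 0.75 in ChILP against CLP, SE 1.31). Cox6a2 has 3.3% of windows shared and Cox6a1 12.3%. Levels of the genes with many shared windows, and their contribution to the sums above, are uncertain. An alternative added after the data were seen kept the 59 members with under 10% of windows shared, of which 53 were tested. They were taken from the same fit, and every called member (Cox6a2, Ndufa9 and Ndufa10) is among them. The counts of calls therefore could not change. The median log2 fold changes of these 53 were 0.147 in ChILP, -0.301 in PD-1+ and -0.315 in CCR6+ against CLP.

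**Figure D5:**
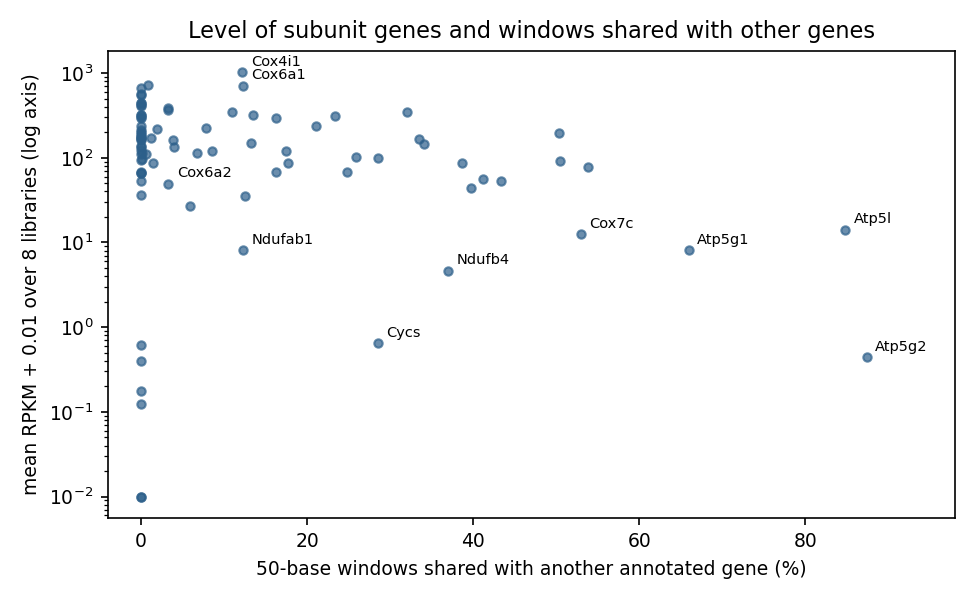
Mean RPKM over the 8 libraries (log axis, with 0.01 added) of the 84 subunit genes, cytochrome c included, against the share of 50-base windows found in another annotated gene. Of the genes with 53.0% to 87.4% of windows shared, Atp5g2, Atp5l, Atp5g1 and Cox7c lie at 14.2 RPKM or less and Ndufa12 at 77.1; Cycs lies at 0.639; the other genes at under 1 RPKM with no shared windows are the alternative forms named above.

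Promoters were searched for short motifs of factors known to act on nuclear genes of the chain, in the 250 bases before the RefSeq start on GRCm38.p6, on both strands. Sequences were matched for 75 of the 91 members, and Cox6a2 was not among them. The core of the NRF1 motif, GCGCATGC, occurred in 13.3% of the matched members and in 2.6% of all 27025 genes with promoter sequences. A gene was counted if any of its promoters matched. The ETS core CCGGAAG occurred in 17.3% and 7.8%. The E-box CAGCTG occurred in 8.0% and 14.7%, and CACCTG in 17.3% and 19.4%. Matches are descriptions of letters and not binding sites. The 200 bases before the start are shown for Cox6a1, the abundant partner of Cox6a2, at chr5:115348959-115349158, and for Cycs, at chr6:50566570-50566769, both on the minus strand, with matches to the NRF1 and ETS letters in capitals. The run of 10 capitals in Cox6a1 holds 2 overlapping NRF1 matches, 1 on each strand, and the ETS match lies 16 bases before the start.
Cox6a1: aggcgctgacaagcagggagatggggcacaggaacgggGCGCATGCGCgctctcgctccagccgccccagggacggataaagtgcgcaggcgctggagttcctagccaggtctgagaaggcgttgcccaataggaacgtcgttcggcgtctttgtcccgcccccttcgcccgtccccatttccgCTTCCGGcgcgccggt
Cycs: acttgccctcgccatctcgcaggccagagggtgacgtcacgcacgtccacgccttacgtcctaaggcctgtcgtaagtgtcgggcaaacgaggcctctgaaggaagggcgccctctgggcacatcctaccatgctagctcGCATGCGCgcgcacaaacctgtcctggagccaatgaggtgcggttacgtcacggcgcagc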

How the data were processed

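Libraries of total RNA from sorted cells were made by Smart-seq2, which amplifies full-length polyadenylated transcripts, and read to 50 bp, per the labels' protocols. Bowtie2 2.2.2, CASAVA 1.8.4 and mm9 appear in the submitters' processing notes. For the counter, strand setting and multiply mapped reads, the choice is not given in the sources used, so reads of antisense or overlapping genes cannot be told apart. The authors deposited, per library, a whole-number read count and an RPKM value for each of 29257 RefSeq transcripts. For each symbol the transcript of highest mean count was kept; 7 members have several transcripts.

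The main test was edgeR 4.0.16 under R 4.3.3 on the counts (TMM scaling; genes kept by filterByExpr at a minimum of 10; two-sided quasi-likelihood F test with robust fitting; all 8 libraries in 1 fit, 4 residual degrees of freedom, common biological coefficient of variation 0.526). Benjamini-Hochberg adjustment ran over the 13619 genes tested, and a call is an adjusted p under 0.05. SE is the absolute log2 fold change divided by the square root of F. Levels, means and SD are from the deposited RPKM. The fit was tested on simulated data. Alternatives used DESeq2 1.42.0 and limma 3.58.1 on log2(RPKM + 1) and log2(RPKM + 0.1), for the 12232 genes with at least 1 RPKM in 2 libraries.

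The members, the lists and the tests were chosen with earlier results of these data known. Named were the alternative forms and their paralogues, every called member, and per role the 2 most abundant and the 2 with the smallest p in each of the 2 comparisons of the study's design; other genes named outside this rule (Ndufa3, Ndufs1, Ndufab1, Cox5a and Cox7c among the members) were chosen after their values were seen. Promoters are from RefSeq (GRCm38.p6) and coding sequences and windows from GENCODE M21; no files' coordinates were used.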

Additional observations from a re-analysis of the deposited data

How the results depend on the processing

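Cox6a2 kept its direction in the 3 comparisons with CLP under all 12 alternatives of each. Its log2 fold change ranged from -4.15 to -3.45 in ChILP (called in 6), from -2.28 to -1.74 in PD-1+ (called in 9) and from -2.16 to -1.57 in CCR6+ (called in 9). Between PD-1+ and CCR6+ it ranged from -0.427 to 0.0223, turning sign without PD-1+ replicate 1. In ChILP against CLP the count of called members, 1, fell to 0 with DESeq2 size factors in edgeR, to 0 with the replicate block and to 0 whichever replicate was left out. In PD-1+ against CLP the count of 3 became 11 with DESeq2's Wald test, 30 with limma at either pseudocount, 0 with only the 4 libraries compared, and 0 to 1 with a replicate left out; the median of -0.28 became -0.548 with limma at either pseudocount. In CCR6+ against CLP the count of 1 became 6 with the Wald test, 41 and 38 with limma at pseudocounts of 1 and 0.1, and 0 to 1 with a replicate left out. Its median of -0.31 became -0.241 with DESeq2 size factors, -0.242 with the Wald test, -0.647 and -0.648 with limma, and -0.255 with only the 4 libraries compared. Limma ran on RPKM without TMM scaling, and with another filter and another test. The cause was not tested for any of these changes. The share of all genes called under the alternatives was not set beside these counts of members. The counts are therefore no result about the members. The members' median minus that of all genes kept its sign in the comparisons with CLP: 0.0949 to 0.185 in ChILP, -0.291 to -0.211 in PD-1+ and -0.306 to -0.188 in CCR6+; between PD-1+ and CCR6+ it ran from -0.0631 to 0.0262. Counts without overlap moved with scaling, an alternative chosen after seeing the data: on log2(RPKM + 1), 35 members were higher in ChILP (17.0% of all genes were), 11 lower in PD-1+ than in CCR6+ (14.2%), and 69 and 77 lower in PD-1+ and CCR6+ than in CLP (38.7% and 45.7%). By read counts in place of RPKM, the Cox6a2 share was 5.32% in PD-1+ and 5.13% in CCR6+.

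Replicate numbers are shared between titles. Over all genes tested, the correlations of same-numbered libraries' deviations were 0.0942 for CLP with ChILP and 0.0796 for PD-1+ with CCR6+. They were -0.0815 for CLP with PD-1+, -0.00913 for CLP with CCR6+, -0.106 for ChILP with PD-1+ and -0.0412 for ChILP with CCR6+. Hba-a1 did go with the number in CLP and ChILP. It took 0.242% and 0.332% of gene reads in replicate 1 and 0.0394% and 0.0440% in replicate 2. In PD-1+ and CCR6+ it did not, with 1.67% and 2.32% in replicate 1 and 1.90% and 1.83% in replicate 2. With the number as a replicate block, the counts of called members were 0 in ChILP and 1 in PD-1+ against CLP. With 2 libraries per group, each count of calls rests on single libraries.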
